A study of Homo sapiens with 4 samples.

Results

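Complement components and the membrane proteins that hold complement in check were measured by RNA sequencing in stem-like cells of the established human line MDA-MB-231, a model of triple negative breast cancer. The 9 genes described were set by name: the proteases C1R and C1S, the central component C3, factor B (CFB), factor D (CFD), factor I (CFI) and the membrane regulators CD46, CD55 and CD59. All 9 were among the 23228 genes listed in each count file, and all 9 passed the filter on low counts that left 14012 genes for testing. The cells had been sorted for aldehyde dehydrogenase activity with the ALDEFLUOR kit and grown in MammoCult medium. They stably carried lentiviral vectors for a control short hairpin RNA (shRNA) or for an shRNA against KDM1A, with 2 libraries in each group. KDM1A, also called LSD1, is a histone demethylase that acts in repressor complexes. The labels name 1 KDM1A shRNA and no rescue, and they do not say whether the stable cultures were clones or whether both libraries of a group derive from separate cultures. All p-values below thus reflect the spread between libraries, which may be technical.

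Complement is a cascade of blood proteins, made mainly in the liver but also by many epithelial and stromal cells, that tags and lyses targets. The proteases C1r and C1s start the classical pathway, and factors B and D build the convertase of the alternative pathway. All routes meet at C3, whose cleavage deposits C3b on nearby surfaces. Host cells protect themselves with CD46, a cofactor for the cleavage of C3b by factor I, with CD55, which takes convertases apart, and with CD59, which blocks the membrane attack complex. In inflamed tissue, interleukins, interferon gamma and NF-kB are known to raise C3, CFB, C1R and C1S.

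Gene reads per library ranged from 23902900 to 26923678, and a count of 0 allows a level of up to 3 reads, which is 0.112 to 0.125 CPM (read counts scaled to library totals with TMM factors). The counts of KDM1A itself, 4660 and 4059 in control libraries 1 and 2 against 561 and 649 in the knockdown libraries, match the labels. Genes of the mesenchymal breast cancer line were abundant in all 4 libraries, with summed levels of 8074 to 8546 CPM over 8 genes. ALDH1A1, the gene often tied to ALDEFLUOR activity, had 0, 1, 1 and 0 reads, while ALDH1A3 had 292, 240, 99 and 134. MDA-MB-231 is known to lack the CDKN2A region, yet the libraries labelled control held 323 and 329 reads of CDKN2A against 13 and 19 in the KDM1A shRNA libraries. CDKN2A, CDKN2B and MTAP together stood at 23.2 and 25.4 CPM in the controls and 1.17 and 1.32 CPM after knockdown, and all 3 fell by 16-fold or more, as did 275 tested genes in all (1.96% of 14012). Of 8 neuronal and embryonic markers 5 could be tested, with 4 lower and 1 higher: NEFM, NEFL and LIN28B fell by 16-fold or more, SYP fell from 50 and 34 reads to 16 and 12, and TUBB3 rose from 22.8 to 27.4 CPM (0.27, edgeR adjusted p = 0.0123; DESeq2 adjusted p = 0.0613; without KDM1A shRNA library 2, edgeR adjusted p = 0.246). DCX and ELAVL4 were at 0 in every library. Of all tested genes, 28.8% were called lower and 27.3% higher. The summed level of the 8 was 95.5 and 91.7 CPM in the controls and 27.4 and 31.2 CPM after knockdown, nearly all of the latter TUBB3 (25.3 and 29.5 CPM). Both control libraries held such reads, so no comparison could be made without them. The part of these transcripts in the results was not tested. In bulk RNA, fewer cells of a type and less RNA per cell cannot be told apart.

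Of the cascade genes among the 9, C1R, C1S, C3 and CFB fell, each to between 27.0% and 40.1% of its control level. CFD, which also acts in the cascade, did not fall with them. The membrane regulators moved far less: CD55 fell to 69.6%, CD59 to 86.0%, and CD46 stood at 101%. CFI, the protease that inactivates C3b, rose 3.70-fold from a low level, and CFD, also low, did not pass the test. In all, 6 of the 9 genes were called lower, 1 higher and 2 were not called with edgeR at an adjusted p under 0.05, where 28.8% of all tested genes were called lower and 27.3% higher. Falls of 2-fold or more were seen in 4 of 9, against 8.54% of all tested genes, and a rise of that size in 1 of 9, against 3.07%. The median log2 fold change (KDM1A shRNA over control) of the 9 was −0.52, against −0.0047 over all tested genes. The 9 were chosen with earlier results of these data known, so these shares describe the 9 alone. Among the 17 other complement genes tested, 2 fell by 2-fold or more, and the median was 0.06. Together the 9 genes took 0.285% and 0.275% of gene reads in the controls and 0.189% in each KDM1A shRNA library. Of those reads, the 3 membrane regulators held 58.0% and 58.6% in the controls and 77.0% and 76.9% after knockdown.

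**Figure D1:**
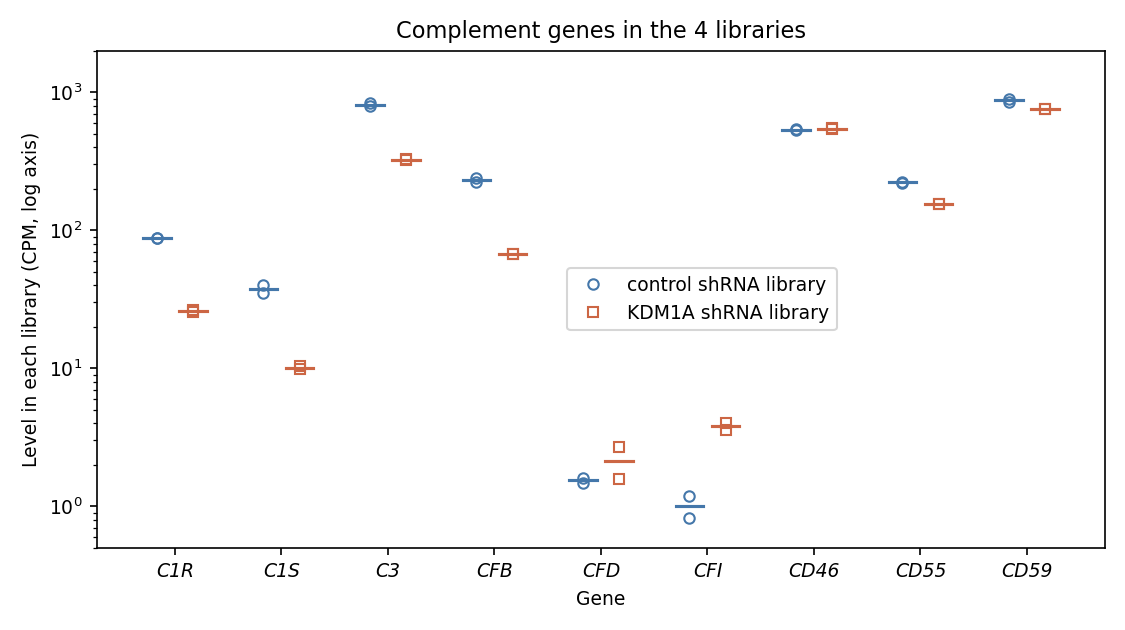
Level of each of the 9 complement genes in every library, in CPM on a log axis; circles are the 2 control shRNA libraries, squares the 2 KDM1A shRNA libraries and short lines the group means. C1R, C1S, C3 and CFB sit lower in both KDM1A shRNA libraries, CFI sits higher, CD46 is almost level at 536 to 548 CPM, and the groups overlap for CFD.

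C1R and C1S encode the paired serine proteases that are bound to C1q. C1R (chromosome 12, 7187513 to 7245203, minus strand, GRCh37) was read 2340 and 2131 times in control libraries 1 and 2, against 617 and 684 times in KDM1A shRNA libraries 1 and 2. At the level of CPM this was 87.4 and 87.8 against 25.8 and 26.5. Both knockdown libraries lay far under both controls, and the libraries of each group were nearly equal. C1R fell 3.35-fold (log2 fold change −1.74, SE 0.06, edgeR adjusted p = 4.78e-12). C1S (chromosome 12, 7096351 to 7178336, plus strand) gave 1069 and 848 reads in the controls against 235 and 268 after knockdown, or 39.9 and 35.0 CPM against 9.81 and 10.4 CPM. The groups did not overlap, although the 2 controls differed more than for C1R. C1S fell 3.71-fold (−1.89, SE 0.09, edgeR adjusted p = 3.04e-10).

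The sequence upstream of C1R is shown because its transcript fell with its neighbour C1S; it gives the 250 bases before the upstream of its 2 RefSeq start sites (GRCh38.p14, chr12:7092446-7092695, minus strand), 5′ to 3′, with a C/EBP match (TTGCNNAA on either strand) in capitals.
C1R: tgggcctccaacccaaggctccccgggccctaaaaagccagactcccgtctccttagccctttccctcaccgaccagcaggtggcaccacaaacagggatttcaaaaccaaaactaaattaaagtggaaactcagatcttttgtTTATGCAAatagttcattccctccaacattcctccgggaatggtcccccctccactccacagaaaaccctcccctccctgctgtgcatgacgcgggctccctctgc
This match is TTATGCAA, 106 bases before the start. Of all 35116 RefSeq promoter windows of this length, 9.05% held at least 1 such match. The window before the other C1R start held 1 match each to C/EBP, NF-kB and STAT motifs, searched as given for CFB.

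C1R and C1S lie 9.50 kb apart by the transcripts used here. The 6 nearest tested genes around the pair, taken by position and after the data had been seen, were all lower as well, where 28.8% of all genes were. These falls were smaller than those of C1R and C1S, and 3 of the 6 calls were not stable. LPCAT3 and EMG1 lost theirs in DESeq2 (adjusted p = 0.133 and 0.124) and in 3 of the 4 fits with 1 library left out (LPCAT3 kept its call only without control library 2, and EMG1 only without control library 1). CLSTN3 lost its call without KDM1A shRNA library 2 (edgeR adjusted p = 0.0843). C1RL, a related protease gene next to C1R, fell from 32.8 ± 1.55 to 20.2 ± 2.09 CPM (mean ± SD of 2 libraries; log2 fold change −0.70, SE 0.08, edgeR adjusted p = 3.91e-06). The other 5 changed by −0.37 (PEX5), −0.26 (PHB2), −0.26 (CLSTN3), −0.17 (EMG1) and −0.15 (LPCAT3) on the log2 scale. C1RL shares exon sequence with C1R in the GENCODE annotation, and reads over more than 1 gene were not counted, so the split between the 2 genes is uncertain.

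C3 is the protein on which all complement routes converge. C3 (chromosome 19, 6677715 to 6730573, minus strand) gave 22243 and 19201 reads in the controls against 7811 and 8379 after knockdown. Its level was 831 and 792 CPM in the controls and 326 and 325 CPM in the KDM1A shRNA libraries. No knockdown library came near a control. C3 fell 2.49-fold (log2 fold change −1.32, SE 0.04, edgeR adjusted p = 9.92e-13), the smallest fall of the 4 cascade genes called lower.

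CFB encodes the serine protease subunit of the alternative pathway convertase. CFB (chromosome 6, 31913427 to 31919863, plus strand, in the class III region of the MHC) gave 6437 and 5412 reads in the controls against 1621 and 1731 after knockdown. In CPM it stood at 240 and 223 against 67.7 and 67.1. The 2 knockdown libraries were almost equal and well under both controls. CFB fell 3.44-fold (log2 fold change −1.78, SE 0.05, edgeR adjusted p = 6.91e-13).

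The upstream sequence of CFB is shown because it held matches to 3 of the 5 motifs searched, as did the second C1R window, each of a factor known to act in inflammation (GRCh38.p14, chr6:31945845-31946094, plus strand, 250 bases before the start, 5′ to 3′, matches in capitals).
CFB: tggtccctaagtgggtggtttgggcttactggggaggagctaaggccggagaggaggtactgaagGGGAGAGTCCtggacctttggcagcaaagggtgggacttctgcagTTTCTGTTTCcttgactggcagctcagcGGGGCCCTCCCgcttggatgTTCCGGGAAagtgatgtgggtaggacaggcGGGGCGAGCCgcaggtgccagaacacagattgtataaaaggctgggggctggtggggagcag
The motifs were NF-kB (GGG and CC with any 5 bases between), C/EBP (TTGCNNAA), STAT (TTCNNNGAA), interferon response (GAAA and GAAA with any 2 bases between) and AP-1 (TGANTCA), each read on both strands. CFB held 1 STAT match (TTCCGGGAA, 92 bases before the start), 1 interferon response match (TTTCTGTTTC, 140 bases before it, on the opposite strand) and 4 NF-kB matches, 2 of which overlap. Among all 35116 windows, 6.57% held a STAT match and 3.02% an interferon response match. The NF-kB letters are loose, since 54.4% of all windows held them. A match describes letters and is not a measured binding site. Matches were not limited to the genes that fell most. The windows of CD59, which stood at 86.0% of control, held NF-kB, C/EBP, STAT and AP-1 matches among them. The window of CFD, which was not called, held 6 NF-kB matches.

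C2, the classical pathway counterpart of CFB and its neighbour in the MHC, fell less, from 609 and 490 reads to 319 and 344 (log2 fold change −0.69, SE 0.09, edgeR adjusted p = 1.14e-05). C2 shares exon sequence with CFB in the annotation, so the same limit of counting holds. Farther out, ZBTB12 (−0.61) and TNXB (−0.57) were lower, EHMT2 (0.20; adjusted p = 0.148 in edgeR without KDM1A shRNA library 2) and ATF6B (0.43) higher, and STK19 (−0.19) was not called. These neighbours were likewise taken by position after the data had been seen. Over the 42 genes that lie nearest to the 9 members, 17 were lower, 12 higher and 13 not called; 69% were called, against 56.1% of all tested genes, with a median log2 fold change of −0.016.

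CFD encodes factor D, the protease that cleaves factor B. CFD (chromosome 19, 859453 to 867884, plus strand) gave 43 and 36 reads in the controls against 38 and 69 after knockdown, or 1.61 and 1.48 CPM against 1.59 and 2.67 CPM. KDM1A shRNA library 2 alone stood above the rest, and the groups overlapped. The log2 fold change was 0.47 with a 95% interval of −0.10 to 1.04 (edgeR adjusted p = 0.146). With KDM1A shRNA library 1 left out the value was 0.79 and CFD was called higher (edgeR adjusted p = 0.0258); without library 2 it was 0.04. MED16 lies on the other strand over part of the annotated CFD exons, and no source used here states a strand setting for the counting; there, reads of the 2 genes cannot be told apart.

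CFI encodes factor I, which cleaves C3b with the help of cofactors such as CD46. CFI (chromosome 4, 110652164 to 110723306, minus strand) gave 32 and 20 reads in the controls against 96 and 92 after knockdown. This was 1.19 and 0.824 CPM against 4.01 and 3.57 CPM. Both knockdown libraries were above both controls, at a level where few reads were counted. CFI rose 3.70-fold (log2 fold change 1.89, SE 0.23, 95% interval 1.40 to 2.38, edgeR adjusted p = 6.43e-06), and 99.1% of all tested genes had a lower log2 fold change.

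The upstream sequence of CFI is shown as that of the 1 member that rose (GRCh38.p14, chr4:109802000-109802249, minus strand, 250 bases before the start, 5′ to 3′); it has no capitals because none of the 5 motifs matched.
CFI: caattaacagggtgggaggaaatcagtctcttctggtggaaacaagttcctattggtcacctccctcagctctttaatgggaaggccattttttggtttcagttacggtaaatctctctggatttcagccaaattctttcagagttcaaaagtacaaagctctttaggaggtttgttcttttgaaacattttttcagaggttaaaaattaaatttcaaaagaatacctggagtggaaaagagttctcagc
It was also the poorest in G and C of the 12 RefSeq windows of 7 members, at 38% against 43.6% to 70.8% in the others. C3 and C1S had no entry in that table.

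The membrane regulators stayed high in both groups. CD46 (chromosome 1, 207925382 to 207968858, plus strand) gave 14424 and 12997 reads in the controls against 13126 and 13987 after knockdown. Its level was 539 and 536 CPM against 548 and 542 CPM. The 4 libraries lay within a narrow band, with the knockdown pair just above the controls; 77.7% of all tested genes showed no overlap between groups. The log2 fold change of CD46 was 0.02 with a 95% interval of −0.05 to 0.09 (edgeR adjusted p = 0.622), and its sign turned with upper quartile scaling (−0.0048).

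The upstream sequence of CD46 is shown as that of an abundant member that was not called (GRCh38.p14, chr1:207751788-207752037, plus strand, 250 bases before the upstream of 2 RefSeq start sites, 5′ to 3′, NF-kB matches in capitals, which overlap in the first run).
CD46: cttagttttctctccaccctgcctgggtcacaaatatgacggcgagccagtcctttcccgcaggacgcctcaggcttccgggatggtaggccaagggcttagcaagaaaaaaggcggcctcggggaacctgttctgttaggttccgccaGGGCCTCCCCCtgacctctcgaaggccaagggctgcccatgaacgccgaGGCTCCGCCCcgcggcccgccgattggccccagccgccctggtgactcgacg
It held 3 matches to the loose NF-kB letters and 0 to the other 4 motifs.

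CD55, or decay-accelerating factor, and CD59, or protectin, are both held at the surface by a glycosylphosphatidylinositol (GPI) anchor. CD55 (chromosome 1, 207494864 to 207560149, plus strand) gave 5985 and 5350 reads in the controls against 3692 and 3994 after knockdown, or 223 and 221 CPM against 154 and 155 CPM. The groups were well apart and the libraries of each group nearly equal. CD55 fell 1.44-fold (log2 fold change −0.52, SE 0.04, edgeR adjusted p = 3.54e-08). CD59 (chromosome 11, 33724556 to 33758025, minus strand) gave 24092 and 20713 reads in the controls against 18057 and 19478 after knockdown, or 900 and 854 CPM against 754 and 755 CPM. The knockdown libraries were lower than both controls, and the controls differed more from each other than the knockdown libraries did. CD59 fell 1.16-fold (−0.22, SE 0.04, edgeR adjusted p = 0.000114).

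**Figure D2:**
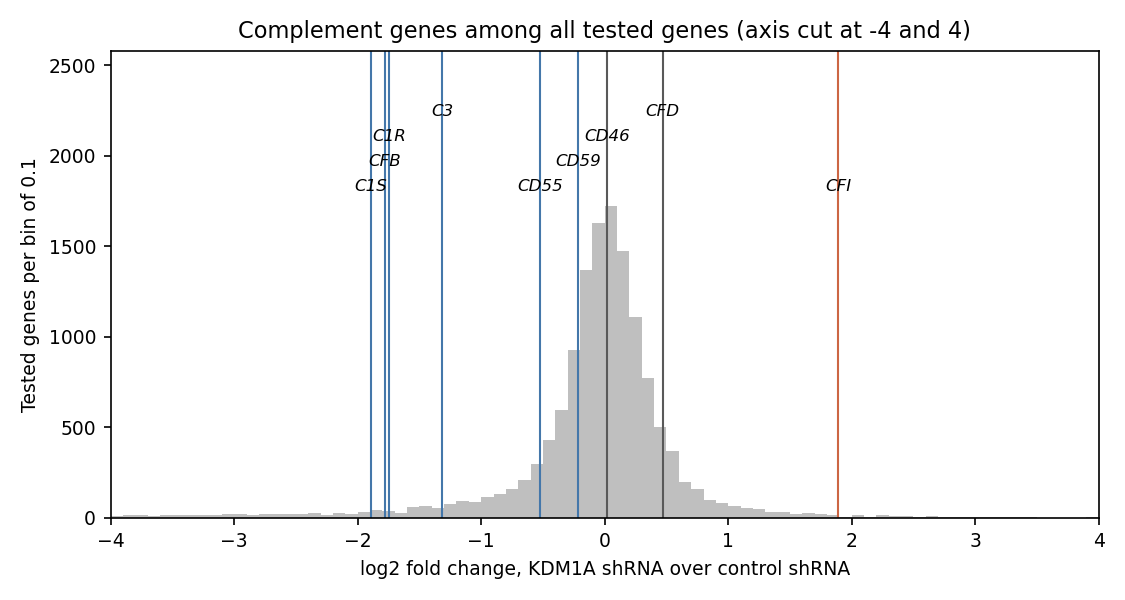
Number of tested genes per bin of 0.1 in log2 fold change, KDM1A shRNA over control, with a line at each of the 9 complement genes; 275 genes under −4 and 11 above 4 are not drawn. C1S, CFB, C1R and C3 lie in the lower tail, CD59 and CD46 within the bulk, and CFI in the upper tail.

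Levels of different genes were compared as CPM per kilobase of 1 annotated transcript for each gene, so the order rests on that choice of transcript. In the controls CD46 was highest at 162 ± 0.603 (SD, 2 libraries), followed by C3 at 155 ± 5.28, CD59 at 116 ± 4.28, CFB at 93.6 ± 4.93 and CD55 at 85.7 ± 0.803. C1R stood at 41.5 ± 0.157, C1S at 14.0 ± 1.31, CFD at 1.30 ± 0.0722 and CFI at 0.510 ± 0.132. No neighbours in this order overlapped between their libraries. After knockdown the order was CD46 at 164 ± 1.27, CD59 at 99.7 ± 0.0892, C3 at 62.2 ± 0.189, CD55 at 59.6 ± 0.174, CFB at 27.2 ± 0.170, C1R at 12.4 ± 0.250 and C1S at 3.77 ± 0.152. CFI (1.91 ± 0.158) and CFD (1.79 ± 0.646) came last and overlapped. By this measure C3 passed from above CD59 to below it, and CFB from above CD55 to below it. In CPM, not divided by length, C3 was already under CD59 in the controls (group means 811 and 877). CFB stood above CD55 in the controls by CPM as well (232 and 222) and under it after knockdown (67.4 and 154).

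Other complement genes came from a list of 53 that adds recognition molecules, terminal components, regulators and receptors. Of the 53, 36 had too few reads to be tested, 15 of them with 0 reads in all 4 libraries. The remaining 17 were tested, with 4 higher, 6 lower and 7 not called and a median log2 fold change of 0.06 (56.1% of all tested genes were called). Rises were seen among the soluble regulators. C4BPB, a chain of the C4b-binding protein, rose 2.79-fold, from 3.88 ± 0.117 to 10.8 ± 0.570 CPM (log2 SE 0.13). C4BPA, from the same list, had only 1 and 2 reads in the controls against 4 and 4 after knockdown and was not tested. Clusterin (CLU), which blocks the terminal complex, rose from 19.5 ± 0.198 to 46.5 ± 0.734 CPM (1.26, SE 0.07). SERPING1, the inhibitor of C1r and C1s, fell instead, at 107 and 91 reads in the control libraries against 41 and 39 in the knockdown libraries (−1.27, SE 0.19, edgeR adjusted p = 6.21e-05). CFHR3, another soluble regulator, was not called.

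Among recognition molecules COLEC12, a scavenger receptor of the collectin family, fell from 135 and 136 reads to 8 and 16 (log2 fold change −3.45, SE 0.26, edgeR adjusted p = 3.92e-08). C1QA, C1QB and C1QC, the chains of C1q, had 0 reads in all 4 libraries. Component C5 (0.22, edgeR adjusted p = 0.0602) and properdin, CFP (0.09), were not called. C4A and C4B were also at 0, but they are near-identical copies and reads that align more than once were not counted, so their level is unknown. None of the 6 terminal components from C6 to C9 had enough reads to be tested. THBD (−0.13, edgeR adjusted p = 0.0537) and SUSD4 (0.19), the other tested membrane regulators, were not called, but THBD was called lower in 4 of its 14 alternatives, among them without control library 1 (−0.16, edgeR adjusted p = 0.0139). Of the receptors, GPR77, which binds C5a, fell (−0.89, SE 0.14), as did the integrin chain ITGB2 (−0.74, SE 0.06), while C5AR1 (−0.12) and C1QBP (0.06) were not called. The integrin chains ITGAM and ITGAX, from the same list, had at most 7 reads in any library and were not tested. C3AR1, the C3a receptor, was called higher at 23 and 22 reads against 43 and 36 (0.85, SE 0.28, edgeR adjusted p = 0.0178), a call lost in DESeq2 (adjusted p = 0.172) and without control library 1 (0.0596) or KDM1A shRNA library 1 (0.153).

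**Figure D3:**
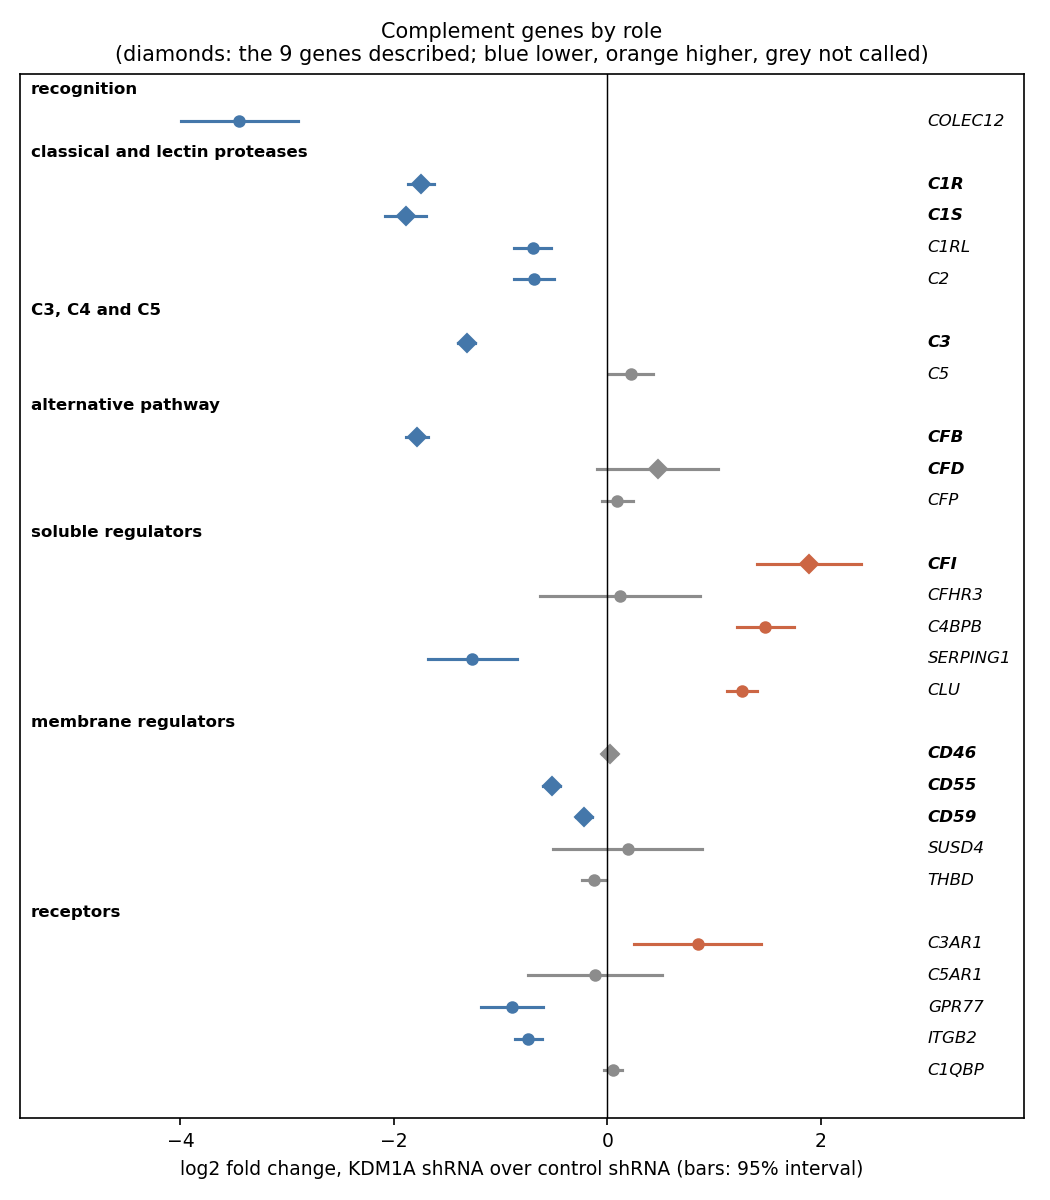
Log2 fold change (KDM1A shRNA over control) of tested complement genes, with 95% intervals as bars, grouped by role; diamonds mark the 9 genes described. The 4 tested genes grouped as classical and lectin proteases (C1R, C1S, C2 and the related C1RL), C3 and CFB lie under 0. CFI, C4BPB and CLU lie above it, and CD46 lies at 0.02.

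Because CD55 and CD59 need a GPI anchor, the genes that build and attach it were examined as a list of 28, all of them tested. In this list 12 were higher, 5 lower and 11 not called, where 27.3% of all tested genes were higher and 28.8% lower, with a median log2 fold change of 0.08, and 0 changed by 2-fold or more. GPAA1, a subunit of the transamidase that attaches the anchor, rose from 60.3 ± 6.76 to 91.1 ± 4.04 CPM (0.60, SE 0.07), and the enzyme PIGB (0.76, SE 0.08) and PGAP2, which remodels the anchor (0.54, SE 0.08), also rose. PGAP1, which trims a lipid from the anchor, fell (−0.46, SE 0.07). DESeq2 called 10 of these genes higher and 2 lower. Among all genes it tested, DESeq2 called 38.3%, and 48.9% of those calls were higher.

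Listed cytokines, receptors and transcription factors of the pathways known to raise complement genes were mostly lower. Of 31 listed, 26 could be tested, with 19 lower, 2 higher and 5 not called and a median log2 fold change of −0.22; 28.8% of all tested genes were lower. Interleukin-1 beta (IL1B) fell 11.3-fold, from 230 and 202 reads to 17 and 20 (−3.50, SE 0.19, edgeR adjusted p = 1.34e-09), and IL1A from 163 and 149 reads to 37 and 45 (−1.89, SE 0.17). IL6 fell from 39.1 ± 0.462 to 15.6 ± 0.913 CPM (−1.33, SE 0.07). The NF-kB subunit NFKB2 (−0.81, SE 0.04) and both chains of the interferon gamma receptor, IFNGR1 (−0.85, SE 0.05) and IFNGR2 (−0.56, SE 0.04), fell as well. IRF1 (0.51, SE 0.07), named after its value was seen, was 1 of the 2 genes called higher. The 5 not called were 3 receptors and 2 transcription factors. Falls of 2-fold or more were called in 3 cytokines and in 0 receptors or transcription factors. DESeq2 called 15 of the inducers lower and 2 higher. Among all genes it tested, DESeq2 called 38.3%, and 48.9% of those calls were higher. IFNG, IFNB1, OSM and IL17A had 0 reads in all 4 libraries.

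**Figure D4:**
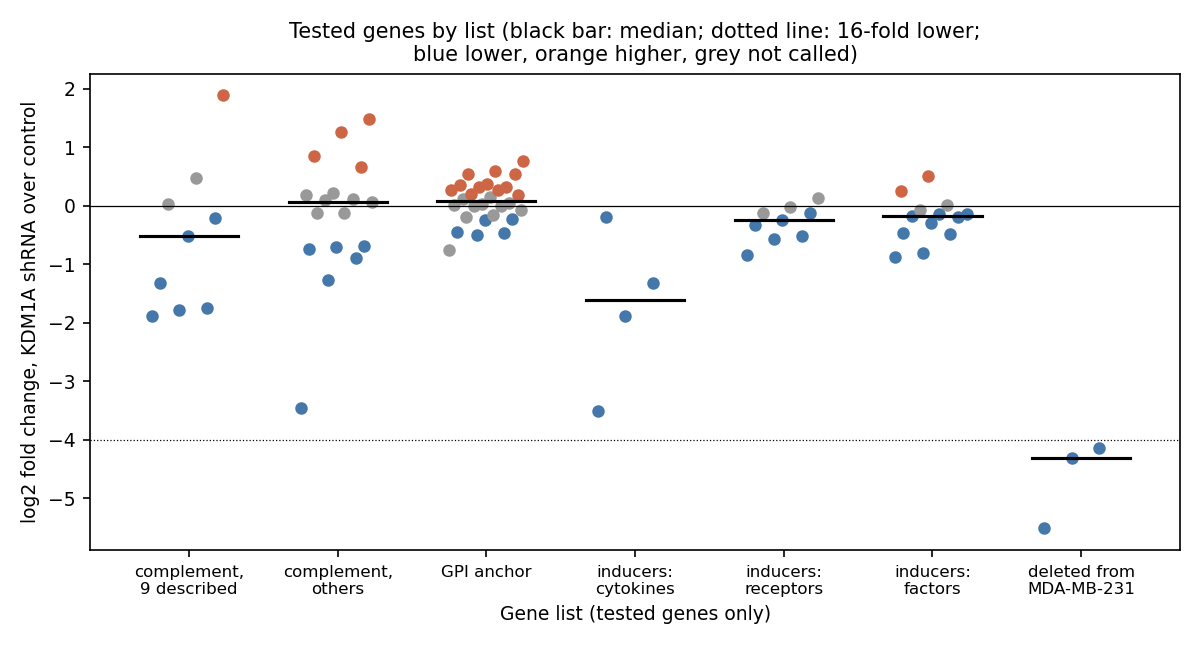
Log2 fold change (KDM1A shRNA over control) of the tested genes of each list, 1 point per gene, with black bars at the medians and a dotted line at 16-fold lower. The 9 complement genes and the 4 tested inducing cytokines have medians of −0.52 and −1.61, the GPI anchor genes 0.08, and of the genes drawn only the 3 deleted from MDA-MB-231 lie under the dotted line.

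Markers of other cell types that are known to make complement were examined in the same libraries. Of all tested genes, 28.8% were called lower and 27.3% higher, so calls in these short lists are common. Of 8 hepatocyte markers 2 could be tested, and both were lower. The call of the less abundant one was lost in DESeq2 (adjusted p = 0.107). Its log2 fold change was −1.17, and −0.92 without control library 1. ALB had 0, 1, 2 and 1 reads, TTR and AHSG had 0 in every library, and the summed level of 544 and 561 CPM in the controls and 377 and 379 CPM after knockdown was nearly all SERPINA1 (551 and 377 CPM as group means). Of 8 macrophage and monocyte markers 3 could be tested, with 2 lower and 1 higher. The sum of 181 and 184 CPM against 133 and 131 CPM was mostly CD68, which fell (175 and 123 CPM), as did CD14 (log2 fold change −0.89), while CSF1R rose 3.04-fold, from 43 and 50 reads to 131 and 145. TYROBP had 0 reads in every library and CD163 at most 1. Of 8 fibroblast markers 6 could be tested, with 4 higher and 2 lower, and their sum was 146 and 142 CPM in the controls against 110 and 102 CPM after knockdown. Most of this sum was decorin (DCN), which fell from 123 to 55.0 CPM, and PDGFRA fell from 19 and 25 reads to 5 in each library. PDGFRB rose from 9.22 to 25.5 CPM, COL1A1 from 10.5 to 18.9 CPM, LUM from 15 and 20 reads to 135 and 121, and FAP from 1 and 3 reads to 17 in each library. Of 8 endothelial markers 5 could be tested and all 5 were lower, with a sum of 185 and 178 CPM against 128 and 125 CPM. The abundant ones were ESAM (82.7 to 71.4 CPM), KDR (70.7 to 32.9 CPM, log2 fold change −1.11) and PECAM1 (26.0 to 21.5 CPM). The ESAM call was lost without KDM1A shRNA library 2 (edgeR adjusted p = 0.0972), and that of PECAM1 in DESeq2 (adjusted p = 0.0551) and without KDM1A shRNA library 1 (edgeR adjusted p = 0.0601). VWF and CDH5 had at most 24 reads in any library, and CLDN5 had 0 in all 4. The part of these markers in the fall of C1R, C1S, C3 and CFB was not tested.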

How the data were processed

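Each library has 1 deposited file of raw read counts by gene symbol, not normalized. Per the submitters' processing notes, the authors used CASAVA 1.8.2, TopHat2 2.0.8b and HTSeq with hg19. The 5 HTSeq summary lines were left out; genes held 59.0% to 61.1% of each file's total. The test was run in R 4.3.3 with edgeR 4.0.16, on counts scaled by TMM and filtered by filterByExpr (min.count of 10, min.total.count of 15), as the quasi-likelihood test of group with no covariate. P-values were adjusted by Benjamini-Hochberg over all 14012 genes tested (threshold 0.05), and SE was derived from the log2 fold change and the F statistic. Intervals are 95% intervals from the same fit. With 2 libraries per group no exact permutation test can reach the threshold, so none was run.

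The members and lists were chosen with earlier results of these data known. Named genes are KDM1A, the members, complement genes past the threshold, the 4 GPI anchor genes and 6 inducers with the smallest p, and the 3 most abundant markers per list; others are marked or given as counts of reads. Alternatives were other normalizations, filters, DESeq2 1.42.0, limma-voom (limma 3.58.1), the replicate block, thinned counts, and each library left out. The edgeR test was tried on simulated counts. Within each group the counts differed beyond sampling noise (chi-square divided by its degrees of freedom: 4.13 for control and 1.62 for KDM1A shRNA). Gene positions are from GENCODE on GRCh37, which is hg19; promoters are from RefSeq on GRCh38.p14. A few genes counted in the lists are not reported here by name.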

Additional observations from a re-analysis of the deposited data

How the results depend on the processing

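Over 14 alternatives each (13 for CFD and CFI, which a minimum mean of 5 CPM leaves untested), the 9 members gave 121 values with the same direction and side of the threshold, 1 that newly passed it and 2 of opposite sign. C1R (−1.77 to −1.72), C1S (−1.98 to −1.79), C3 (−1.35 to −1.28), CFB (−1.84 to −1.73), CD55 (−0.55 to −0.51), CD59 (−0.25 to −0.18) and CFI (1.66 to 2.19) kept their calls in every alternative that tested them. The 2 of opposite sign were CD46 with upper quartile scaling (−0.0048) and with a minimum mean of 5 CPM (−0.0014), neither past the threshold. Members called higher numbered 0 with that minimum, which removes CFI, and 1 to 2 with 1 library left out; members called lower numbered 6 in all 14. C5AR1 ranged from −0.51 to 0.22 and CFHR3 from −0.044 to 0.26 with 1 library left out. Neither was past the threshold. CFP (0.16, adjusted p = 0.0384) was called higher without control library 2, and C1QBP (0.09, adjusted p = 0.0104) without control library 1. GPI anchor genes called lower numbered 2 in DESeq2, and the cause was not tested. DESeq2 called fewer genes in general, 38.3% of those it tested against 56.1% in the main edgeR fit. Scaling moved the median of all genes to between −0.03 and 0.0015.

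Replicate numbers do not pair the libraries by any label, and the deviations of same-numbered libraries correlated at 0.011 across genes. With the replicate block 8142 genes were called in place of 7861, and the members still gave 6 lower and 1 higher. CFD, CFI and C3AR1 rest on fewer than 100 reads per library, which limits what can be read from them.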
